A study of Mus musculus with 8 samples.

Results

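Expression of 9 regulators of upper-layer and callosal projection neurons was examined in the P3 cortex of dcKO_hGFAP-Cre mice and controls: Zbtb18, Mef2c, Pou3f1, Pou3f2, Pou3f3, Cux1, Cux2, Rorb and Met. The genes were taken by symbol, and each matched 1 Ensembl identifier among the 48709 genes of the count files. The RNA came from the dorsal telencephalon (dTel) of 4 mutants and 4 controls, all in a C57BL/6J background. The dcKO_hGFAP-Cre mice carry floxed alleles on both copies of BAF155 (Smarcc1) and BAF170 (Smarcc2), the scaffolding subunits of the BAF chromatin remodeling complex, together with the hGFAP-Cre transgene. The controls carry Cre as well, with 1 floxed and 1 intact copy of each gene per the study's methods, although the series text calls them wild types. A human GFAP promoter drives this Cre, which acts in radial glial progenitors of the dTel. Neurons born before recombination, interneurons that migrate in from the ventral telencephalon, microglia and vessels should therefore keep their BAF subunits. BAF loss was not measured by cell type here. No source says whether animals shared a litter, so the samples may not be independent. The p-values set the difference between the groups against the spread within these 2 groups of 4 samples.

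Upper-layer neurons are the last projection neurons that cortical progenitors produce, and they migrate past the deep-layer neurons born before them. Many of them are callosal, which means that their axons cross the corpus callosum to the opposite hemisphere, while the neurons of layer 4 receive thalamic input. Their identity is set by combinations of transcription factors, of which CUX, POU and ROR family members are the classical layer markers.

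All 9 genes were lower in dcKO_hGFAP-Cre cortex with library sizes scaled by TMM, which takes most genes as unchanged, from Pou3f1, at 15.7% of the control mean, to Cux1, at 76.3%. When libraries were scaled instead to 7 genes of glutamatergic neurons, Pou3f1, Met, Zbtb18 and Mef2c stayed lower, Cux2 and Rorb no longer passed the test, and Cux1, Pou3f2 and Pou3f3 turned to positive values. All 9 passed the filter on low counts, with at least 306 counts in every library, and all 9 had an adjusted p under 0.05 with a negative log2 fold change (edgeR's quasi-likelihood test, adjusted over 16525 genes by the Benjamini-Hochberg method). Of all genes tested, 37.5% were called in either direction and 18.9% were called lower, and of the 4776 genes expressed in control cortex at least as highly as Rorb, the member lowest in controls, 36.9% were. For each of the 9 genes every mutant sample lay below every control sample, as was the case for 17.7% of all genes tested (exact permutation p = 0.0286 for each, two-sided, the smallest that 4 samples against 4 allow). The median log2 fold change of the 9 genes was -1.005, against 0.02 over all genes tested. A log2 fold change of -1 or lower was reached by 5 of the 9 genes and, among called genes, by 2.81% of all genes tested. In bulk tissue, fewer cells of a type and less RNA per cell cannot be told apart.

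**Figure D1:**
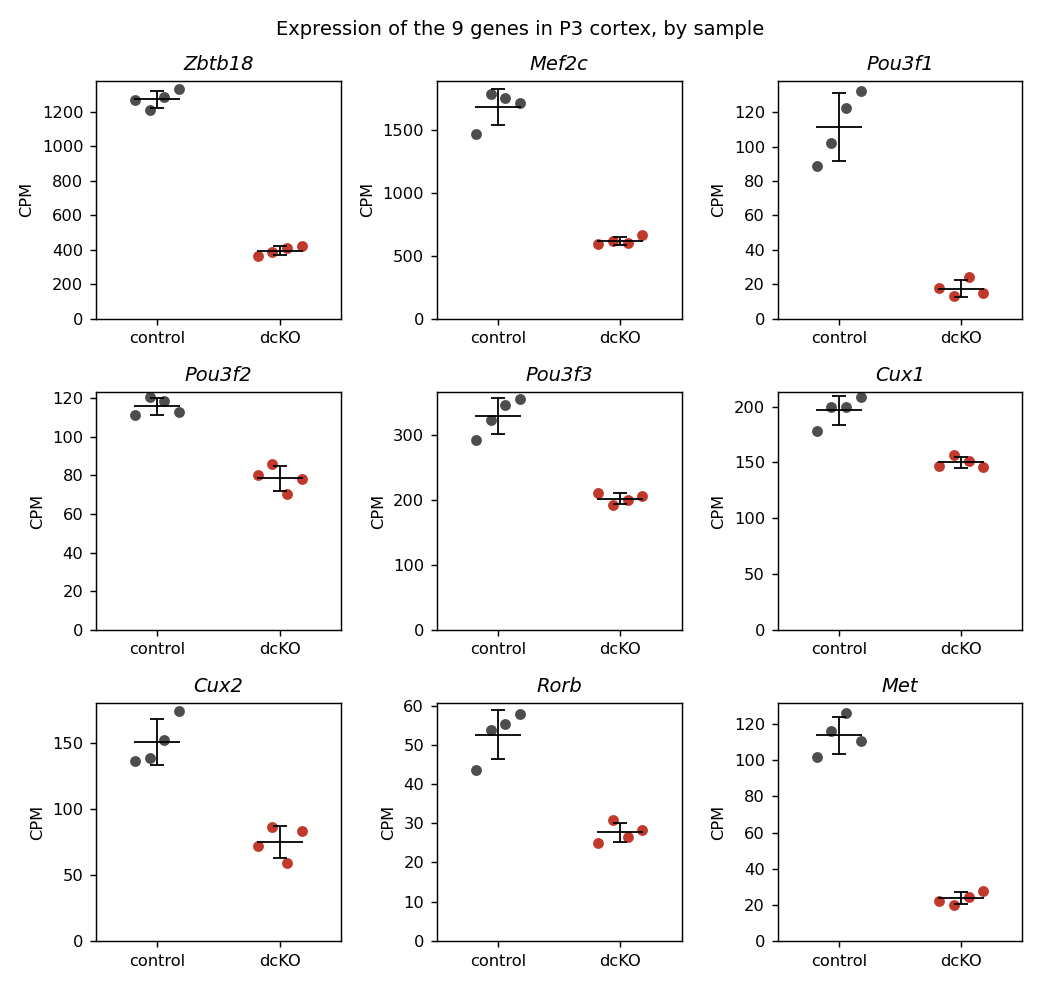
Expression of each gene in CPM (a gene's count relative to the TMM-scaled total of its library, y axes from 0) in 4 control (grey) and 4 dcKO_hGFAP-Cre (red) samples, with replicates 1 to 4 from left to right, a horizontal line at the mean and error bars of 1 SD. In every panel the red points lie below all grey points; scaled to glutamatergic neuron genes, Cux1, Pou3f2 and Pou3f3 turned to positive log2 fold changes.

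The libraries held between 21126713 and 32110285 counts. Smarcc1 was at 143.5 to 170.5 CPM in controls and at 73.6 to 86.9 CPM in mutants, and Smarcc2 at 469 to 500.3 CPM and 256 to 319 CPM, so both deleted genes were lower in every mutant. Markers of cortical glutamatergic neurons were detected in all libraries. Lists of other cell types moved with the groups: the summed expression of 8 interneuron genes (613 to 642 CPM in controls, 949.7 to 1018 CPM in mutants), of 10 microglia genes (129.96 to 169.9 CPM against 240.1 to 293 CPM) and of 12 striatal genes (508 to 655 CPM against 722 to 1286 CPM) was higher in every mutant. So was that of 7 thalamic and midbrain genes (26.9 to 32.6 CPM against 51.7 to 76.1 CPM), of which 5 were called higher and 1 lower. Among them Shox2 was at 0.0854 ± 0.142 CPM in controls and 15.9 ± 2.19 CPM in mutants (SD, n = 4 each), although the tissue was labelled cortex. All 7 oligodendrocyte precursor genes were called lower, with sums of 425 to 460.1 CPM in controls and 236 to 314 CPM in mutants. The mitochondrial share of counts was 2.06% to 3.23% in controls and 3.57% to 5.47% in mutants, so it was higher in every mutant. The summed expression of 11 radial glia and astrocyte genes was 2725 CPM in mutant replicate 3, against 1204 to 1580 CPM in the other mutants and 1724 to 1776 CPM in controls. The choroid plexus gene Ttr reached 584 CPM in mutant replicate 1 and 1128 CPM in replicate 2, with 15.8 CPM or less in the other 6 libraries. All 9 genes were still called lower without mutant replicate 3, and also without mutant replicates 1 and 2, in the latter case with log2 fold changes from -2.51 to -0.41 and adjusted p of 0.0169 or less (edgeR's quasi-likelihood test). Xist, which is expressed in female cells, reached 630 CPM in control replicate 4 and 1065 CPM in mutant replicate 3. It was at 5.80 CPM or less in the other 6 libraries. The part of the other cell types, of non-cortical tissue, of sex and of RNA quality in the results was not tested.

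Zbtb18 encodes a zinc finger repressor, also known as RP58, that newborn cortical neurons need to end progenitor programs and migrate. The gene (ENSMUSG00000063659) lies on the plus strand of chromosome 1 of mm10, from 177442351 to 177450764. Among the 9 genes it had the highest expression per kilobase of exon and the smallest p, the 3rd smallest of all genes tested. Expression was 1267, 1208, 1282 and 1328 CPM in control replicates 1 to 4. In dcKO_hGFAP-Cre replicates 1 to 4 it was 362, 386, 409 and 421 CPM. The spread within each group was small, with a coefficient of variation of 3.89% in controls and 6.55% in mutants, and the lowest control was 2.87 times the highest mutant. Group means were 1271 ± 49.5 CPM in controls and 394 ± 25.8 CPM in mutants (SD, n = 4 each), and the log2 fold change was -1.69 ± 0.07 (SE, adjusted p = 3.73e-08). The annotated antisense gene Gm26801 shares 54 exonic bases with Zbtb18 but held only 26 to 70 counts per library, against 8469 or more for Zbtb18.

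RefSeq promoter windows, 250 bases before to 50 after a start site, were searched because the 9 genes moved together and encode DNA-binding proteins in all cases but Met. Windows on GRCm38.p6 were listed for 8 of the 9 genes (16 windows), and Pou3f1 had no entry. The 5 motifs searched, on both strands, were ACATCTG (an E-box of the kind that ZBTB18 binds, which contains the general E-box CANNTG), the MEF2 consensus (CTA and TAG around 4 bases that are each A or T), ATGCAAAT (POU octamer), a ROR element and ATCGAT (CUX core). In the whole table of 32851 windows, 4.43% held the first, 0.557% the second, 1.74% the third, 0.219% the fourth and 0.925% the fifth. The E-box was found in 2 member windows, both of Zbtb18, and the CUX core in 1, of Cux2, while the other 3 motifs were found in none of the 16. A match is a description of the letters only. The windows of Zbtb18 at its first start site and at a downstream start site, and that of Met, the member with the next smallest p, are shown 5′ to 3′ with motif matches in capitals. In the first, chr1:177442101-177442400 on the plus strand, the capitals mark the E-box, at positions -130 to -124 from the start site. In the second, chr1:177445571-177445870 on the plus strand, they mark the E-box read on the other strand, CAGATGT, at positions -190 to -184. The window of Met, chr6:17463707-17464006 on the plus strand, held none of the 5.
Zbtb18 first start site: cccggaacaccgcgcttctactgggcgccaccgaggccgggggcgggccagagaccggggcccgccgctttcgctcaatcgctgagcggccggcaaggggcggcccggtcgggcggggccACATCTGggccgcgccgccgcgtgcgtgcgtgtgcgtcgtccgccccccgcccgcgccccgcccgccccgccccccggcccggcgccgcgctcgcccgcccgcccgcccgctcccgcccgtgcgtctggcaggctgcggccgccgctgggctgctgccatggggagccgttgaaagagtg
Zbtb18 downstream start site: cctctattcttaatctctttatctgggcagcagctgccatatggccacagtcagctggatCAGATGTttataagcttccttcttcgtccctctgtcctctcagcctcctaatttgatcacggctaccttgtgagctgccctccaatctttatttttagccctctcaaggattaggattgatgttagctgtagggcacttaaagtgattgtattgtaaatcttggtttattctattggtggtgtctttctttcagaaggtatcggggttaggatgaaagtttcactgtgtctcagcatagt
Met: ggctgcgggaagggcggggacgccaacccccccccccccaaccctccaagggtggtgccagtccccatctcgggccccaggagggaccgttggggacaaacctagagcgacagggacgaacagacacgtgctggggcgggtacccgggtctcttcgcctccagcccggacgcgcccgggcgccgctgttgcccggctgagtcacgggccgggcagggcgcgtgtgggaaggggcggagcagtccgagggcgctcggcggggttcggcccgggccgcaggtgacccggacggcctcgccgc

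Genes that Zbtb18 is known to repress were set beside it as a list of 7: the Id genes Id1 to Id4, whose products block basic helix-loop-helix factors, the proneural factors Neurog2 and Neurod1, and the migration GTPase Rnd2. In dcKO_hGFAP-Cre cortex 5 of the 7 were higher and 1 was lower at an adjusted p under 0.05, with a median log2 fold change of 0.73 (0.02 over all genes tested, of which 18.6% were called higher). Neurog2 rose from 1.94 ± 0.378 CPM to 12.7 ± 2.12 CPM (mean ± SD of 4 samples), and the log2 fold change was 2.71 ± 0.18 (SE, adjusted p = 1.13e-06). Rnd2, Id4 and Neurod1 rose by 0.73, 0.78 and 0.65 on the log2 scale, with no overlap between the groups, and Id3 rose by 0.77 with overlapping groups. Id2 moved the other way, from 239 ± 14.2 CPM to 152 ± 25.7 CPM (log2 fold change -0.65, adjusted p = 7.63e-04). Id1 did not pass the test, at 0.48 on the log2 scale (adjusted p = 0.225). Neurog2 also belongs to the list of intermediate progenitor genes, of which 6 of 7 were tested, 4 were called higher and none lower, and whose summed expression was 187 to 204 CPM in controls and 221 to 244 CPM in mutants. The part of progenitors in these values was not tested. The 5 promoter windows of this list held none of the 5 motifs, and Id1 and Rnd2 had no window.

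Mef2c encodes a MADS-box transcription factor that acts in neuronal maturation and synapse development. It is also expressed in microglia and vessels. The gene (ENSMUSG00000005583, chromosome 13, from 83504034 to 83667080 of mm10) had the highest CPM of the 9. Control replicates 1 to 4 had 1468, 1785, 1755 and 1717 CPM. The mutants had 596, 614, 601 and 666 CPM. Control replicate 1 was the lowest control, still 2.20 times the highest mutant. Group means were 1681 ± 144.8 CPM and 619 ± 32.1 CPM (SD, n = 4 each), and the log2 fold change was -1.44 ± 0.08 (SE, adjusted p = 3.99e-07). The microglia list, by contrast, was higher in mutants in 8 of 10 genes, with a median log2 fold change of 0.88. Of 10 endothelial and pericyte genes, 5 were called lower and none higher, with summed expression of 381 to 449 CPM in controls and 261 to 397 CPM in mutants; the part of these cells in the Mef2c values was not tested. Of the paralogs of Mef2c, Mef2a (142 and 137 CPM) differed by -0.05 on the log2 scale (adjusted p = 0.646) and Mef2d (181 and 154 CPM) by -0.23 (adjusted p = 0.0512, edgeR's quasi-likelihood test). Neither passed the threshold of 0.05, although for Mef2d every mutant lay below every control. Mef2b held 3 counts or fewer per library.

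The POU class III factors are encoded by genes with a single exon. Pou3f2 (Brn2) and Pou3f3 (Brn1) act together in the production and migration of upper-layer neurons, and Pou3f1 (Oct6, SCIP) marks subsets of cortical projection neurons. Pou3f1 (ENSMUSG00000090125, chromosome 4, from 124656807 to 124660655) was at 88.7, 102.1, 122.6 and 132.1 CPM in control replicates 1 to 4 and at 17.96, 13.0, 24.0 and 15.1 CPM in the mutants. The lowest control was 3.70 times the highest mutant. The log2 fold change, -2.67 ± 0.20 (SE, adjusted p = 7.18e-06), was the largest fall of the 9 genes and the 13th lowest of the 16525 genes tested. It also varied most within groups, with a coefficient of variation of 17.6% in controls and 27.3% in mutants, and by p it ranked 140th. The antisense gene Gm2164 shares 330 exonic bases with Pou3f1 and fell with it, from 0.942 ± 0.132 CPM to 0.187 ± 0.109 CPM (log2 fold change -2.38, adjusted p = 5.56e-04). Gm2164 was looked up for its position and held 29 counts or fewer per library, against 306 or more for Pou3f1. The strand setting of the counting is not given in the sources used here, so reads of the shared bases cannot be assigned to either gene.

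Pou3f2 (ENSMUSG00000095139, chromosome 4, from 22482780 to 22488366) and Pou3f3 (ENSMUSG00000045515, chromosome 1, from 42695768 to 42703176) fell less. Pou3f2 was at 111.2, 120.6, 118.5 and 112.9 CPM in controls and at 80.3, 85.8, 70.1 and 78.0 CPM in mutants. On the log2 scale the difference was -0.56 ± 0.08 (SE, adjusted p = 1.92e-04). Pou3f3, the most abundant of the 3 per kilobase of exon, was at 292, 322, 346 and 355 CPM in controls and at 210.7, 192, 199 and 205 CPM in mutants. On the log2 scale the difference was -0.70 ± 0.08 (SE, adjusted p = 3.94e-05). Neither gene overlapped between the groups, although both changes turned positive (0.28 and 0.15) after scaling to the glutamatergic neuron genes. The fourth gene of the class, Pou3f4, which is typical of the ventral telencephalon and striatum, was higher in every mutant, at 16.5 ± 1.43 CPM against 9.84 ± 1.64 CPM (log2 fold change 0.75 ± 0.14 SE, adjusted p = 0.00119). Of 12 striatal genes, 8 were called higher and none lower, and their part in the Pou3f4 values was not tested.

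Whether related genes fell by the same amount was tested on the ratio of their counts within each library, which does not depend on library scaling. Pou3f1 had 79.8%, 84.7%, 103.4% and 117% of the counts of Pou3f2 in control replicates 1 to 4 and 22.4%, 15.1%, 34.2% and 19.4% in mutants. The log2 ratio differed by -2.13 between the groups, from -0.07 ± 0.26 to -2.20 ± 0.49 (SD, n = 4 each). The ratio of Pou3f1 to Pou3f3 differed by -1.99, from -1.57 ± 0.14 to -3.56 ± 0.37. In both ratios the groups were apart (exact permutation test, two-sided p = 0.0286, adjusted p = 0.0381 over the 4 ratios tested), so Pou3f1 fell further than either relative. Pou3f2 and Pou3f3 kept a closer ratio, with a difference of 0.14 and overlapping groups (exact permutation p = 0.2, adjusted p = 0.2). This difference lay between 0.07 and 0.18 with each sample left out in turn.

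**Figure D2:**
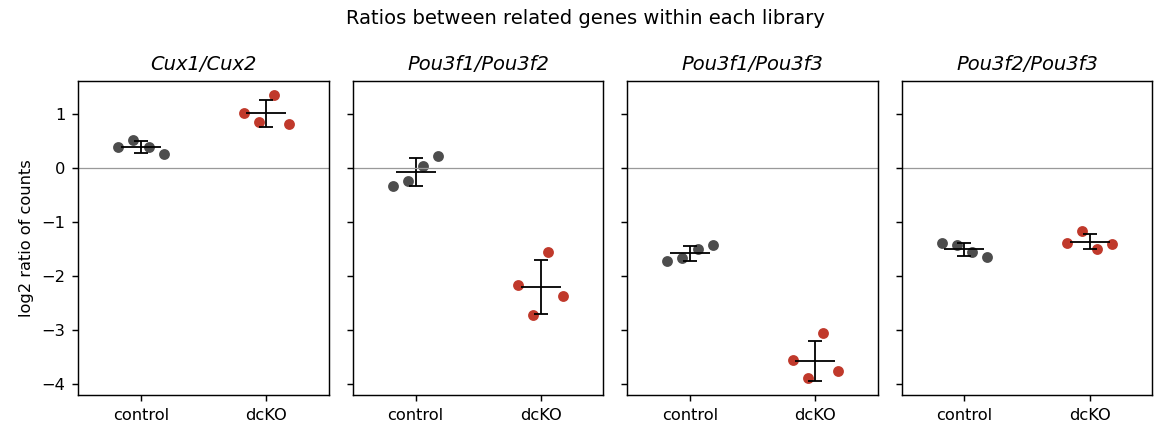
Log2 ratio of raw counts of 2 related genes within each library (y axis) in 4 control (grey) and 4 dcKO_hGFAP-Cre (red) samples, with the mean and error bars of 1 SD. The groups are apart for Cux1/Cux2 and for both ratios that hold Pou3f1, and overlap for Pou3f2/Pou3f3.

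Cux1 and Cux2 encode CUT homeodomain proteins of layers 2 to 4 that regulate dendrites and spines. Both lie on chromosome 5 of mm10, Cux1 (ENSMUSG00000029705) from 136248135 to 136567490 and Cux2 (ENSMUSG00000042589) from 121856366 to 122050102. Cux1 is broadly transcribed, and its locus also encodes the Golgi protein CASP, whose reads the gene count cannot separate. Cux1 was at 178, 199.9, 199.6 and 209 CPM in controls and at 146.6, 157, 151 and 146 CPM in mutants. This was the smallest fall of the 9 genes, with a log2 fold change of -0.39 ± 0.07 (SE, adjusted p = 0.00148), and it turned to 0.45 after scaling to the glutamatergic neuron genes. Cux2, which is the more restricted to upper layers and their precursors and is also found in interneurons, was at 136, 139, 152 and 174 CPM in controls and at 71.7, 86.1, 59.1 and 83.1 CPM in mutants. Mutant replicate 3 was the lowest, and the groups were apart by a factor of 1.58. On the log2 scale the difference was -1.005 ± 0.12 (SE, adjusted p = 6.99e-05). The log2 ratio of Cux1 to Cux2 rose from 0.39 ± 0.11 to 1.01 ± 0.24 (SD, n = 4 each; exact permutation test, two-sided p = 0.0286, adjusted p = 0.0381), so Cux2 fell further than Cux1 in these libraries.

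Rorb encodes an orphan nuclear receptor of layer 4 neurons that is needed for their barrel organization. The gene (ENSMUSG00000036192, chromosome 19, from 18930605 to 19111196) had the lowest expression of the 9 per kilobase of exon in both groups. Controls had 43.6, 53.7, 55.3 and 57.9 CPM, and mutants 24.97, 30.8, 26.6 and 28.2 CPM. The mean fell to 52.5% of control, with a log2 fold change of -0.93 ± 0.11 (SE, adjusted p = 4.62e-05). Its paralog Rora, also a layer 4 gene, fell by 0.45 on the log2 scale with overlapping groups (adjusted p = 0.0161, edgeR's quasi-likelihood test). Rora also belongs to the list of thalamic and midbrain genes, where it is the gene called lower. Of 4 other layer 4 genes, Rora and the potassium channel gene Kcnh5 were called lower, Kcnh5 from 6.49 ± 0.941 CPM to 2.83 ± 0.528 CPM (log2 fold change -1.20, adjusted p = 3.24e-04). Scnn1a and Rspo1, at 3.71 CPM or less, had log2 fold changes of 0.30 and 0.49 with adjusted p of 0.296 and 0.284 in the same test.

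Met encodes the receptor tyrosine kinase for hepatocyte growth factor, which is carried on growing axons of callosal and other forebrain projection neurons in the first postnatal days. The gene (ENSMUSG00000009376, chromosome 6, from 17463800 to 17573980) was at 102.1, 116.4, 126.3 and 110.7 CPM in controls and at 22.3, 19.96, 24.6 and 27.8 CPM in mutants. The lowest control was 3.67 times the highest mutant. Controls averaged 113.9 ± 10.1 CPM and mutants 23.7 ± 3.34 CPM (SD, n = 4 each), and the log2 fold change was -2.26 ± 0.11 (SE, adjusted p = 1.66e-07, the 5th smallest p of all genes tested). Its ligand Hgf did not pass the test, at 6.37 ± 1.32 CPM and 6.16 ± 1.03 CPM (log2 fold change -0.04, adjusted p = 0.873), and neither did the related receptor gene Mst1r (-0.21, adjusted p = 0.437). The adaptor genes Gab1 and Grb2, which carry the signal of Met and of many other receptors, fell, with log2 fold changes of -0.36 and -0.24 (adjusted p = 0.0144 and 0.0202). Over the 12 family and ligand genes of the list, 9 were tested, 3 were called lower and 1, Pou3f4, higher, with a median log2 fold change of -0.23.

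Expression per kilobase of exon, with the exons of all annotated transcripts of a gene merged, was used to compare levels between genes. Cux1 had 20024 such bases from 14 transcripts and Pou3f1 3849 from 1, so the order also depends on the annotation. In control cortex the order was Zbtb18 (207 ± 8.07 CPM per kilobase), Mef2c (107 ± 9.21), Pou3f3 (44.4 ± 3.82), Pou3f1 (28.9 ± 5.10), Pou3f2 (20.7 ± 0.798), Cux2 (14.9 ± 1.73), Met (14.8 ± 1.32), Cux1 (9.82 ± 0.648) and Rorb (4.75 ± 0.565; SD, n = 4 each). Only Cux2 and Met, among neighbours in this order, had overlapping values. In dcKO_hGFAP-Cre cortex Zbtb18 (64.3 ± 4.21), Mef2c (39.4 ± 2.04), Pou3f3 (27.2 ± 1.06) and Pou3f2 (14.1 ± 1.16) were the highest and did not overlap. Below them each neighbouring pair overlapped, in the order Cux1 (7.49 ± 0.252), Cux2 (7.44 ± 1.22), Pou3f1 (4.55 ± 1.24), Met (3.08 ± 0.436) and Rorb (2.50 ± 0.225). Pou3f1 had thus moved from 4th to 7th place, and Cux1 from 8th to 5th. Within the controls, replicate 1 was the lowest in 8 of the 9 genes and replicate 4 the highest in 6. Among the mutants no sample was the highest or the lowest in more than 4 of the 9. Leaving out control replicate 1 kept all 9 genes lower at an adjusted p under 0.05.

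Scaling to 7 genes of glutamatergic neurons (Slc17a7, Slc17a6, Neurod2, Neurod6, Emx1, Camk2a and Nrgn) set the 9 genes beside markers of these neurons. Of these 7 genes, 5 were themselves called lower and 1 (Camk2a) higher with TMM scaling, with a median log2 fold change of -0.80, so this scaling moved the median of all genes tested by 0.85. Their changes differed widely, from -2.13 for Emx1 and -2.04 for Neurod6 to 0.24 for Camk2a. Scaling to fewer of the 7 was not tested. How far the positive values of Cux1, Pou3f2 and Pou3f3 depend on single genes of the set is therefore unknown. On this scale 14156 genes were called higher and 252 lower. Pou3f1, Met, Zbtb18 and Mef2c were among the 252, with log2 fold changes of -1.82, -1.42, -0.85 and -0.60 and adjusted p of 1.15e-05 or less (edgeR's quasi-likelihood test over all genes). Cux2 and Rorb were at -0.16 and -0.09 (adjusted p = 0.205 and 0.472). Cux1 and Pou3f2 were called higher, at 0.45 and 0.28 (adjusted p = 3.37e-04 and 0.0206), and Pou3f3 was at 0.15 (adjusted p = 0.188). As differences of log2 CPM from the mean of the 7 genes, the mutants lay below all controls for Pou3f1, Met, Zbtb18 and Mef2c, above all controls for Cux1, and overlapped them for the other 4 genes. Against 12 pan-neuronal genes, of which 10 were called lower with a median of -0.52, every mutant lay below every control for 6 of the 9 genes, and the groups overlapped for Cux1, Pou3f2 and Pou3f3.

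**Figure D3:**
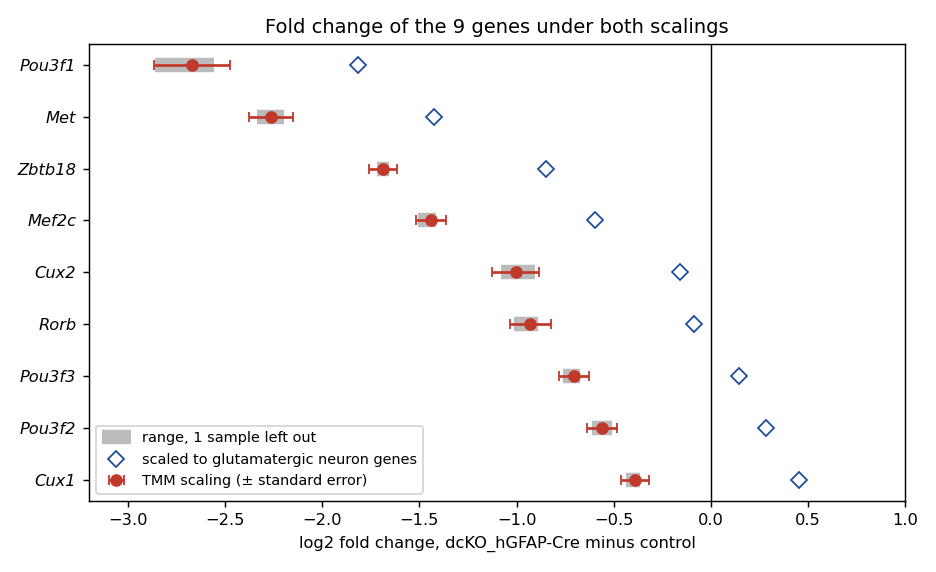
Log2 fold change of each gene, dcKO_hGFAP-Cre minus control (x axis), with TMM scaling (red, bars of 1 standard error), its range with each of the 8 samples left out (grey band), and with libraries scaled to 7 glutamatergic neuron genes (open diamonds). All red points are below 0; on the second scale Pou3f1, Met, Zbtb18 and Mef2c stay below 0, Cux2 and Rorb lie near it, and Pou3f3, Pou3f2 and Cux1 lie above it.

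A list of 23 other upper-layer and callosal genes, which holds none of the 9, was described in the same fit. All 23 were tested, 17 were called lower and 1 higher, with a median log2 fold change of -0.68. Lpl, a lipase gene, Mdga1, which encodes a cell surface protein of upper-layer neurons, and Hspb3, a small heat shock protein gene, fell, with log2 fold changes of -1.42, -1.48 and -1.98. Btg1, an antiproliferative gene, was the gene called in the other direction, at 53.0 ± 6.77 CPM against 35.4 ± 1.495 CPM (log2 fold change 0.58, adjusted p = 8.35e-04). Plxnd1, Ptn, Nnmt, Cited2 and Epha3 did not pass the threshold, with log2 fold changes from -0.54 to 0.24.

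Of 12 deep-layer genes, 8 were called lower and none higher, with a median log2 fold change of -0.66, close to that of the other upper-layer genes, and no difference between the lists was tested. Ntsr1, a gene of corticothalamic neurons, and Sox5 and Fezf2, which encode deep-layer transcription factors, fell, with log2 fold changes of -2.20, -1.52 and -1.08 (adjusted p of 1.49e-05 or less), as did Nr4a2 (-0.79, adjusted p = 1.19e-04). Tbr1, Bcl11b, Tle4 and Foxp2 were at 0.07, 0.13, -0.06 and 0.68 and did not pass the threshold. Summed over the list, expression was 1246 to 1368 CPM in controls and 774 to 1015 CPM in mutants, without overlap.

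**Figure D4:**
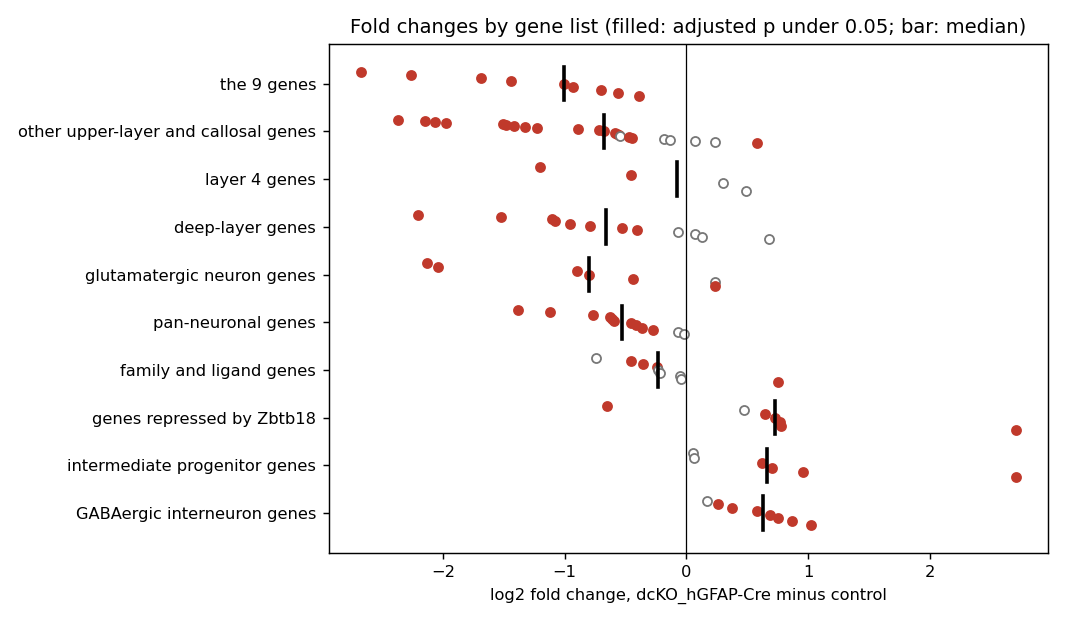
Log2 fold changes, dcKO_hGFAP-Cre minus control with TMM scaling (x axis), of the tested genes of each list (filled: adjusted p under 0.05; open: above it; bar: median). The 9 genes, the other upper-layer and callosal genes (median -0.68), the deep-layer genes (-0.66) and the neuronal lists lie mostly below 0, and the interneuron, intermediate progenitor and Zbtb18-repressed genes mostly above it; scaling to glutamatergic neuron genes adds 0.85 to the median of all genes.

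The genes most like each of the 9 were found by Pearson's r of log2 CPM over the 8 samples, among 14601 other genes with a symbol and a mean of at least 1 CPM. Because all 9 differ between the groups, each r includes that difference. For Zbtb18 they were Nfix (r = 0.998) and Gm9954 (0.998), and for Mef2c Edem1 (0.997) and Ccbe1 (0.997). Pou3f1 was closest to Sema7a (0.997), which encodes a semaphorin, and Inhbb (0.996), Pou3f2 to Nom1 (0.994) and Plaa (0.986), and Pou3f3 to Boc (0.997) and Cyth3 (0.995). Cux1 was closest to Mief1 (0.993) and Stard7 (0.992), Cux2 to Asic2 (0.988) and Btbd9 (0.986), Rorb to Fam174b (0.996) and Cadps2 (0.992), and Met to Nf2 (0.999) and Nell2 (0.997). Of these 18 genes, the largest falls were those of Ccbe1, Sema7a, Gm9954 and Boc, at -2.51, -1.96, -1.86 and -1.74 on the log2 scale. Btbd9 did not pass the test (log2 fold change -0.18, adjusted p = 0.0537), and the other 17 were called lower.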

How the data were processed

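RNA was isolated from P3 dTel with TRIZOL, and libraries were made with the TruSeq RNA Sample Preparation v2 Kit. The authors aligned the reads to mm10 (the build that the submitters' processing notes also name), used featureCounts to count reads per gene, and deposited these raw counts, not normalized, in 1 file per sample; the aligner, annotation and strand setting are not given in the sources used here. Of 48709 identifiers, 48349 were matched to symbols and positions in GENCODE M21 of the same build. Libraries of the 2 groups were compared with edgeR (version 4.0.16, R 4.3.3): quasi-likelihood F test, robust dispersions, TMM and the default filter (minimum count 10), which kept 16525 genes. The standard error was |log2 fold change| over the square root of F. CPM are normalized counts, log2 CPM used a prior count of 2, and exact tests enumerated the 70 arrangements of the samples. No replicates agreed within sampling noise, so each was 1 sample. The test was first tried on simulated data.

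Alternatives were DESeq2 (version 1.42.0), limma-voom (limma 3.58.1), other scalings and filters, the replicate number or lane as a block, and each sample left out. In both groups lane 5 held replicates 1 and 2, while lanes 6 and 7 held replicates 3 and 4. The members, lists and tests were chosen with earlier results of these data known. Named are the 9 genes, up to 4 genes of each pathway list by smallest adjusted p with those that moved against the list, and the 2 genes most like each member; further genes of the lists were named after their values were seen.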

Additional observations from a re-analysis of the deposited data

How the results depend on the processing

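All 9 genes kept their direction and an adjusted p under 0.05 in 17 alternatives, which were DESeq2, limma-voom, DESeq2's size factors, library totals, both filters, the replicate block, the lane as a block, each of the 8 samples left out, and the omission of both mutants with high Ttr, chosen after seeing the data. The largest adjusted p was 0.0169, for Cux1 without those 2 mutants. Scaling to the glutamatergic neuron genes left 4 genes called lower and 2 higher, with 252 lower and 14156 higher over all genes. It turned Cux1, Pou3f2 and Pou3f3 to 0.45, 0.28 and 0.15. By its construction this scaling sets the average of those 7 genes to no change, but not each of them. Library totals shifted the median of all genes by 0.12 and left 31.4% of all calls lower. Without both mutants with high Ttr, which leaves fewer samples, 1581 genes were lower and 1388 higher. With each sample left out, counts over all genes ranged from 2375 to 3273 lower and from 2199 to 3308 higher.

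Relative to pan-neuronal in place of glutamatergic neuron genes, the differences were 0.17 for Cux1, -0.45 for Cux2, -2.13 for Pou3f1, -0.0054 for Pou3f2 and -0.14 for Pou3f3. They were -0.37 for Rorb, -0.88 for Mef2c, -1.13 for Zbtb18 and -1.71 for Met. Pou3f2 and Pou3f3 changed sign, and the cause was not tested. Same-numbered samples of the 2 groups shared a sequencing lane, but no source ties a number to a shared animal, litter or day. They correlated at -0.07 to 0.21 in their deviations from the group means, 2 of 4 pairs above 0.1, and 2 of 8 samples correlated best with their own number. With the replicate block 2982 genes were lower and 2932 higher, and with the lane as a block 3242 and 3208; neither block changed a call among the 9. Among 18 sets of 4 values, no library of the 9 genes stood apart by Dixon's criterion (largest gap 0.785 of the range).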
